A study of Rattus norvegicus with 18 samples.

Results

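The 37 genes described here are all genes that the deposited count table places on the mitochondrial chromosome, out of 30562 genes in all. They comprise 13 protein-coding genes, 2 rRNA genes and 22 tRNA genes, chosen by their chromosome alone and not by their values. Bulk RNA sequencing was done on intestine of Sprague-Dawley rats, an outbred stock, with 6 libraries in each of 3 groups. Irradiated plus formula rats received 10 Gy of X-rays and then Changbing Formula, irradiated rats received the same 10 Gy alone, and control rats received neither. All were of wild type genotype and share 1 batch label, and the labels give no segment of the intestine, age, sex, formula dose or time of collection. The free-text descriptions call the rats of every library untreated. For 12 libraries the titles and treatment entries say otherwise, and groups follow the titles. Nothing states that each library came from a different rat, so p-values measure the spread between these libraries, which may be partly technical.

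The mitochondrial chromosome is a small circle carried in many copies per cell. It encodes core subunits of 4 of the enzyme complexes of oxidative phosphorylation, the pathway that makes ATP from respiration, together with the rRNAs and tRNAs used to translate them inside the organelle. In mammals each strand is transcribed as a long precursor in which tRNAs lie between most of the mRNAs and rRNAs, and cutting out the tRNAs releases the neighbouring RNAs, most of which then receive short poly(A) tails. The abundance of a mitochondrial mRNA in tissue RNA therefore reflects mitochondrial DNA content, transcription, processing and decay together. In bulk tissue, fewer cells of a type and less mitochondrial RNA per cell cannot be told apart.

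The table gives Ensembl IDs and coordinates without symbols. Co1 (ENSRNOG00000034234, bases 5323 to 6867 of chromosome MT, mRatBN7.2) and Cytb (ENSRNOG00000031766, bases 14136 to 15278) were identified by their coordinates. The other names rest on start, end and strand and on the known gene order of mammalian mitochondrial DNA. The forward strand holds 28 of the 37 genes and the reverse strand 9, namely Nd6 (ENSRNOG00000029042, bases 13543 to 14061) and 8 tRNA genes. Complex I, the NADH dehydrogenase, has 7 members, complex III, the cytochrome bc1 complex, has 1, complex IV, the cytochrome c oxidase, has 3, and complex V, the ATP synthase, has 2. The 37 genes cover 15355 bases, of which 81 lie in 2 genes. Reads were counted without strand and a read overlapping 2 genes was not counted for either. The 43 bases that Atp8 shares with Atp6 leave it 161 of its 204 bases, and reads that reach from these into Atp6 were lost as well. Mitochondrial sequence also has copies in nuclear chromosomes, and how reads from such near-identical copies were placed was not tested.

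Between 33598572 and 48398184 counts were assigned to genes per library, of which 2434573 to 14508888 were mitochondrial. Precision of the 15 mRNA and rRNA genes is therefore set by the spread between libraries and not by counting error. Mitochondrial genes took between 17.8% and 25.7% of the counts in irradiated plus formula libraries, with a median of 22.7%. In irradiated libraries they took between 5.77% and 39.7%, with a median of 17.02%. In control libraries they took between 9.30% and 23.3%, with a median of 21.8%. The 3 groups overlap, and the irradiated group spans the range of both other groups. The extremes were 3 libraries: irradiated 5 had the highest share, irradiated 4 the lowest and control 2 the second lowest. Because these libraries lie at the extremes of their groups, results that turn on them are also given without them.

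**Figure D1:**
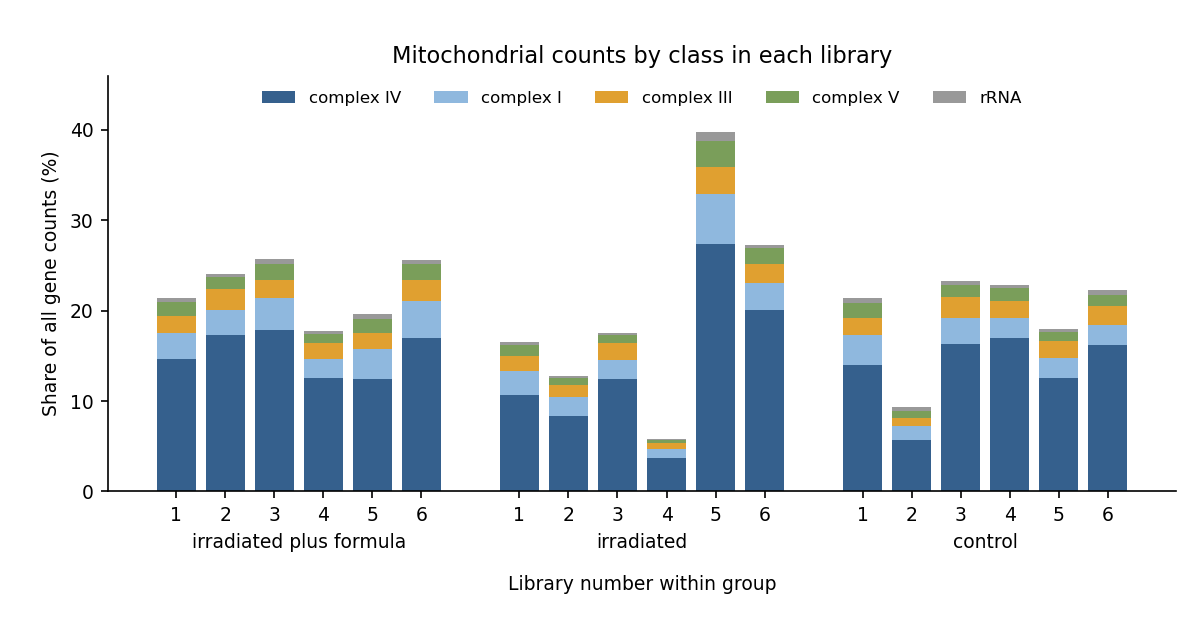
Share of all gene counts (%, vertical axis) taken by mitochondrial genes in each of the 18 libraries (horizontal axis, by library number within the irradiated plus formula, irradiated and control groups), stacked by class. The stacks reach from 17.8% to 25.7% in irradiated plus formula, from 5.77% to 39.7% in irradiated and from 9.30% to 23.3% in control libraries, and complex IV is the largest block in each.

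Levels of single genes moved together with this total. All 15 mRNA and rRNA genes had their lowest level in irradiated 4 and their highest in irradiated 5, in CPM, counts relative to the library total, scaled by TMM factors that correct for composition. The SD was largest in the irradiated group for 15 of 15 genes. The median coefficient of variation over the 15 genes was 27.8% in irradiated plus formula, 78.4% in irradiated and 30.9% in control libraries. As a share of the mitochondrial counts, each of the 15 genes varied less over the 18 libraries than as CPM, with a median coefficient of variation of 26.1% against 49.0%. Between the highest and the lowest library, CPM differed 4.49-fold to 25.7-fold by gene and the share within the mitochondrial counts 1.37-fold to 3.95-fold.

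Genes differed far more from each other than groups did. Per kilobase of gene, Co1, the catalytic subunit of complex IV, was the most abundant in 18 of 18 libraries, with a mean of 66759 ± 32727 CPM per kb (SD over 18 libraries). Co3 and Co2, the other complex IV subunits encoded here, followed at 35969 and 26249 CPM per kb, in this order in all 18 libraries. Atp6 of complex V, which forms part of the proton channel, averaged 20648 CPM per kb and Cytb, the subunit of complex III, 16946 CPM per kb, and Atp6 was above Cytb in 14 of 18 libraries. These 5 genes were above every complex I gene in each of the 18 libraries. Atp8, the small accessory subunit of complex V, was lowest, at 615 CPM per kb, and the mean of Co1 was 109-fold that of Atp8. The level of Atp8 is understated, since every read that touched both Atp8 and Atp6 was dropped, which reaches beyond their shared bases. Per base not shared, Atp8 had 0.0342 of the counts of Atp6. How much of that gap the dropped reads make was not tested. The 109-fold therefore compares counts as assigned and not RNA levels.

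Within complex I, Nd1 led at 10133 CPM per kb, ahead of Nd2 at 6720 CPM per kb in 16 of 18 libraries. Nd4 and Nd3 averaged 4547 and 4269 CPM per kb and were not resolved, since Nd4 was above Nd3 in 8 of 18 libraries. Nd4l averaged 2952, Nd5 1533 and Nd6, the only complex I gene on the reverse strand, 1236 CPM per kb. Nd4l overlaps Nd4, and reads that touched both genes were dropped, so its level is of counts as assigned. Both rRNAs lay among the low mRNAs, with Rnr2 (16S) at 1756 and Rnr1 (12S) at 1579 CPM per kb in these poly(A)-selected libraries. Rnr2 was above Rnr1, and Rnr1 above Nd5, in 11 of 18 libraries each, so these neighbours are not resolved either.

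**Figure D2:**
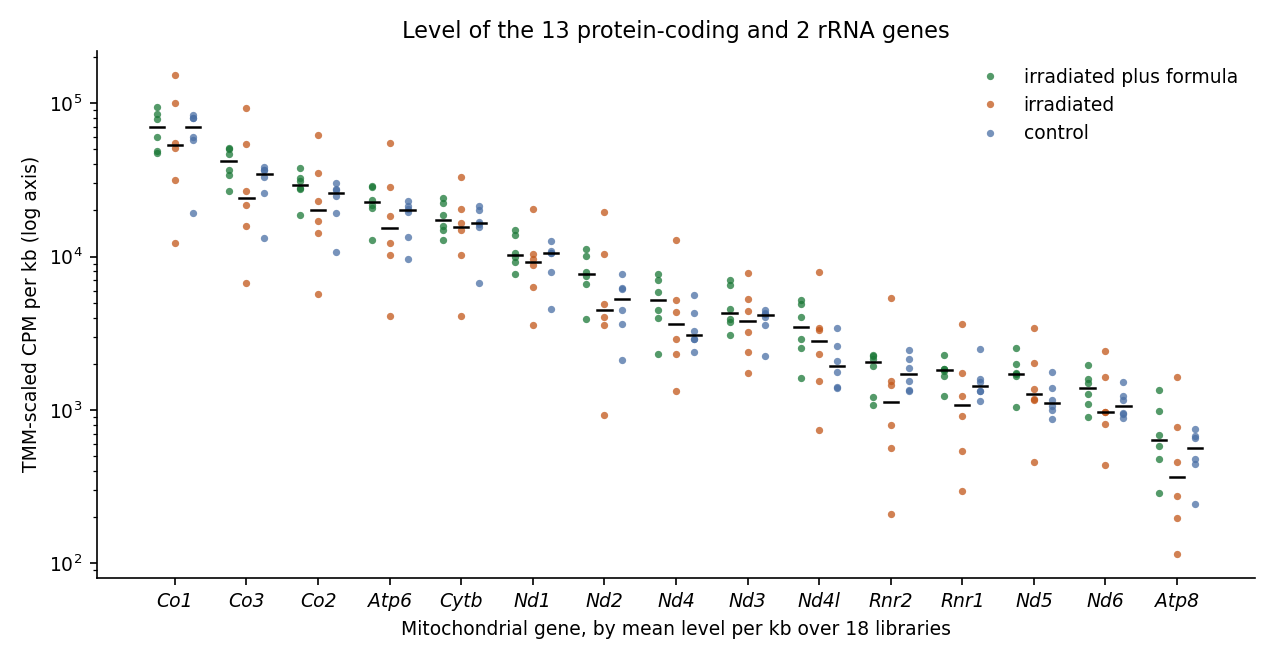
Level of the 13 protein-coding and 2 rRNA genes in TMM-scaled CPM per kb (vertical log axis), with genes on the horizontal axis ordered by their mean over 18 libraries; points are libraries, coloured irradiated plus formula, irradiated and control, and bars are group medians. Means fall from 66759 CPM per kb for Co1 to 615 CPM per kb for Atp8, and for every gene the irradiated points reach both the lowest and the highest level.

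No mitochondrial gene passed the test in any of the 3 comparisons. Of the 37 genes, 17 had enough counts to be tested by edgeR's quasi-likelihood test among 16593 genes, namely the 15 mRNA and rRNA genes and 2 tRNA genes. For irradiated plus formula against control 0 of 17 were called at an adjusted p below 0.05, where 0.0121% of all tested genes were. Irradiated against control called 0 of 17, where 0% of all tested genes were called, and so did irradiated plus formula against irradiated, likewise against 0% of all tested genes. At an unadjusted p below 0.05 the number was 0 of 17 in each comparison, where the shares of all tested genes were 5.71%, 1.93% and 5.59%, in the order of the comparisons just given. DESeq2 also called 0 of the 17 in each comparison, where it called 0.283% of all tested genes for irradiated plus formula against control, 0% for irradiated against control and 0.0482% between irradiated plus formula and irradiated. For 0 of the 17 genes was the CPM of every library of a group above or below that of every library of the other. Over all tested genes the shares of such genes, higher and lower in the first-named group, were 0.488% and 0.344% for irradiated plus formula against control, and 0% and 0.00603% for irradiated against control. Between irradiated plus formula and irradiated they were 0.0783% and 0.108%. The 3 comparisons share libraries in pairs, so their fold changes are not independent of one another.

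Irradiated plus formula against control gave positive fitted values for 16 of 17 genes, where 42.0% of all tested genes were positive. The median log2 fold change over the 17 was 0.33, where the median over all genes was -0.07. Since the members rise and fall with a shared mitochondrial total, their signs are not independent of one another. The 4 largest values were those of complex I genes, of which Nd4l and Nd4 share an mRNA. Nd4l, a small membrane subunit, had CPM of 481 at lowest, 1028 at the median and 1543 at highest in irradiated plus formula libraries, against 415, 571 and 1024 CPM in control libraries. The groups overlap, with the irradiated plus formula median near the highest control. Its log2 fold change was 0.74 (SE 0.44, 95% interval -0.20 to 1.67), with an edgeR adjusted p of 0.877. For Nd2, another membrane subunit, CPM were 4066, 7986 and 11707 in irradiated plus formula libraries, against 2195, 5504 and 7981 CPM in control libraries, and the log2 fold change was 0.64 (SE 0.54). Nd5 and Nd4, the large proton-pumping subunits, each had a log2 fold change of 0.56, with SEs of 0.37 and 0.47. In the fit of only the 12 libraries compared, Nd4l and Nd5 had unadjusted p-values of 0.0354 and 0.0377, with edgeR adjusted p-values of 0.526 and 0.533.

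Outside complex I, all values for irradiated plus formula against control were smaller than those of these 4 genes. Co1 had 73489, 107434 and 146032 CPM in irradiated plus formula libraries, against 29828, 108380 and 130080 CPM in control libraries. Its medians nearly coincide and its ranges overlap, and the log2 fold change was 0.12 (SE 0.64). Cytb had 14598, 19750 and 27464 CPM in irradiated plus formula libraries, against 7700, 19010 and 24337 CPM in control libraries, with a log2 fold change of 0.16 (SE 0.45). Log2 fold changes were 0.42 for Co3, 0.33 for Co2, 0.34 for Atp6 and 0.43 for Atp8, with SEs of 0.48 to 0.54. Rnr1 and Rnr2 had log2 fold changes of 0.18 and 0.03. The median over the 17 genes was 0.20 without irradiated plus formula 6, with 14 of 17 values positive, and 0.21 without control 2, with 13 positive.

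Irradiated against control gave a median log2 fold change of 0.13 over the 17 genes, with 14 positive. Over all tested genes the median was 0.01 and 51.3% were positive. The direction of the 17 rested on single libraries here. Without irradiated 5 the median was -0.22 and 2 of 17 values were positive, and without irradiated 4 it was 0.30 with 16 positive. Without control 2 it was 0.01 with 9 positive, and without control 2 and irradiated 4 together it was 0.26 with 16 positive. Nd4l again had the largest value, 0.60 (SE 0.44), from CPM of 221, 838 and 2346 in irradiated libraries, against 415, 571 and 1024 CPM in control libraries. For Nd4l, irradiated 4 lay below the control range and irradiated 5 above it, and the other irradiated libraries lay inside it. Rnr1, the 12S rRNA, had 285, 1031 and 3458 CPM in irradiated libraries, against 1095, 1373 and 2391 CPM in control libraries. Both rRNAs had negative values, -0.18 (SE 0.43) for Rnr1 and -0.11 (SE 0.54) for Rnr2, while all 13 protein-coding genes had positive ones. Without irradiated 5, Rnr2 had a log2 fold change of -0.89 (SE 0.41), with an unadjusted p of 0.0464 and an edgeR adjusted p of 0.934.

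Irradiated plus formula against irradiated gave a median of 0.16, with 16 of 17 values positive. Over all tested genes the median was -0.02 and 47.1% were positive. The median of the 17 was 0.59 without irradiated 5, with 17 positive, and -0.05 without irradiated 4, with 5 positive. Without irradiated 3 it was 0.07, with 10 positive. Among the 15 mRNA and rRNA genes, Rnr1 had the largest value, 0.36 (SE 0.43). Its CPM were 1185, 1741 and 2196 in irradiated plus formula libraries, against 285, 1031 and 3458 CPM in irradiated libraries, so that the irradiated plus formula libraries all lie within the irradiated range. Co1, with 73489, 107434 and 146032 CPM in irradiated plus formula libraries, against 18992, 82209 and 236888 CPM in irradiated libraries, had a log2 fold change of 0.04 (SE 0.64). The irradiated plus formula range of Co1 is likewise enclosed by that of the irradiated libraries. Without irradiated 5, Rnr1 and Rnr2 had unadjusted p-values of 0.0266 and 0.0358, each with an edgeR adjusted p of 0.574.

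The remaining subunits of complex I followed the same pattern of a wide irradiated range around both other groups. Nd1 had 7313, 9740 and 14234 CPM at the lowest, median and highest library of irradiated plus formula, 3398, 8838 and 19412 CPM in irradiated and 4351, 10082 and 12154 CPM in control libraries. Nd4 had 3194, 7144 and 10564 CPM in irradiated plus formula, 1824, 5018 and 17765 CPM in irradiated and 3297, 4255 and 7759 CPM in control libraries. Nd5 had 1902, 3163 and 4663 CPM in irradiated plus formula, 841, 2335 and 6252 CPM in irradiated and 1590, 2039 and 3233 CPM in control libraries. For Nd4 and Nd5 the control median was the lowest of the 3, while for Nd1 it was the highest. Nd3 had 1076, 1481 and 2461 CPM in irradiated plus formula, 609, 1331 and 2737 CPM in irradiated and 779, 1442 and 1566 CPM in control libraries. The irradiated libraries of Nd2 had 960, 4637 and 20374 CPM. Log2 fold changes for irradiated against control were 0.52 for Nd2, 0.44 for Nd4, 0.41 for Nd5, 0.13 for Nd3, 0.11 for Nd6 and 0.05 for Nd1, and those for irradiated plus formula against irradiated lay between 0.11 for Nd4 and 0.22 for Nd3. For irradiated plus formula against control they were 0.34 for Nd3, 0.32 for Nd6 and 0.21 for Nd1.

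Complexes III, IV and V showed irradiated medians below both other groups. Co3 had 20993, 32729 and 40303 CPM in irradiated plus formula, 5302, 18959 and 72617 CPM in irradiated and 10292, 27232 and 30112 CPM in control libraries. Co2 had 12773, 20171 and 25947 CPM in irradiated plus formula, 3900, 13682 and 42263 CPM in irradiated and 7372, 17786 and 20781 CPM in control libraries. In both genes the irradiated plus formula and irradiated groups hold libraries above every control. Atp6 had 8779, 15450 and 19538 CPM in irradiated plus formula, 2809, 10383 and 37310 CPM in irradiated and 6613, 13636 and 15583 CPM in control libraries. Atp8 had 59.0, 129 and 275 CPM in irradiated plus formula, 23.5, 74.5 and 332 CPM in irradiated and 49.6, 116 and 153 CPM in control libraries. Cytb had 4689, 17893 and 37918 CPM in irradiated libraries. Log2 fold changes for irradiated against control were 0.25 for Co3, 0.17 for Co2, 0.08 for Co1, 0.03 for Cytb, 0.25 for Atp6 and 0.09 for Atp8. For irradiated plus formula against irradiated they were 0.17 for Co3, 0.16 for Co2, 0.13 for Cytb, 0.09 for Atp6 and 0.34 for Atp8. Rnr2, the larger rRNA, had 1701, 3212 and 3572 CPM in irradiated plus formula, 329, 1777 and 8457 CPM in irradiated and 2080, 2691 and 3871 CPM in control libraries, with a log2 fold change of 0.13 for irradiated plus formula against irradiated. Its highest level outside irradiated 5 was a control library.

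**Figure D3:**
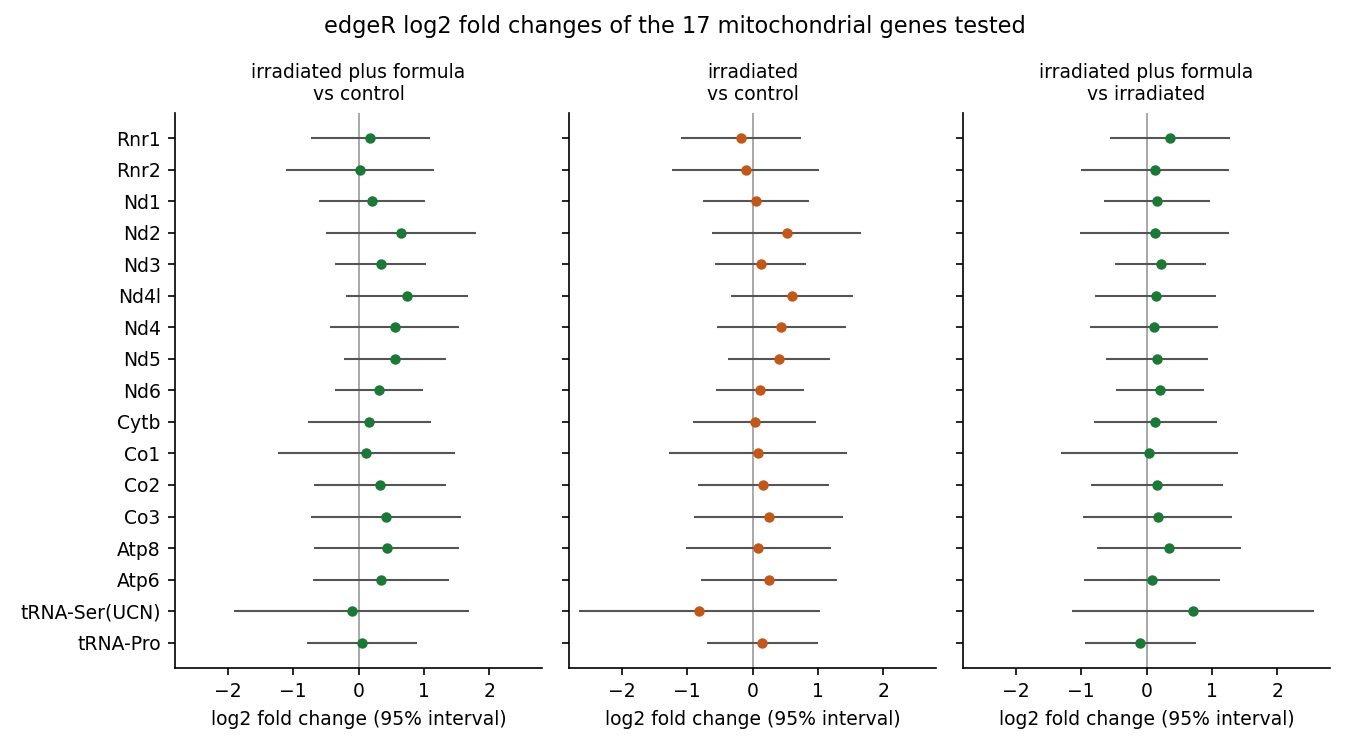
edgeR log2 fold changes (horizontal axis, points) with 95% intervals (lines) for the 17 mitochondrial genes tested (vertical axis), in panels for irradiated plus formula against control, irradiated against control and irradiated plus formula against irradiated. All 17 intervals include 0 in each panel; the largest value among the mRNA and rRNA genes is 0.74, for Nd4l in irradiated plus formula against control.

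The intervals bound what these libraries could show. All 17 included 0 in each comparison, and the interval lay within a 2-fold change in either direction for 2 genes in irradiated plus formula against control and for 5 genes in each of the other 2 comparisons. Among the 15 mRNA and rRNA genes the intervals reached as far as 3.45-fold in irradiated plus formula against control, 3.17-fold in irradiated against control and 2.73-fold in irradiated plus formula against irradiated. SEs ran from 0.32 for Nd6 to 0.64 for Co1.

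Scaling to the mitochondrial total asks how each gene moved relative to a total that includes the gene itself. It narrowed the SEs and left 0 genes called in each comparison. The lowest edgeR adjusted p among the members was then 0.800 for irradiated plus formula against control, 0.817 for irradiated against control and 0.388 between irradiated plus formula and irradiated. This scaling moves the median of all genes to -0.44, 0.43 and -0.83 in these comparisons, and the members' medians were 0.01, 0.02 and -0.04. The SE of Co1 was 0.17 on this scale, with log2 fold changes of -0.08, -0.04 and -0.04. Co1 itself makes up 45.8% of that total in irradiated plus formula, 47.1% in irradiated and 48.4% in control libraries (means). The scaling alone therefore holds its SE and fold changes small in part. On this scale the value of Co1 in irradiated plus formula against control is below 0 and that of Nd4l, 0.38 (SE 0.35), above 0.

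Composition by complex was similar in the 3 groups. Complex IV took 69.7% ± 2.83 of the mitochondrial protein-coding counts in irradiated plus formula, 68.9% ± 4.0 in irradiated and 70.6% ± 4.61 in control libraries (SD, n = 6 each). Complex I took 14.3% ± 2.21 in irradiated plus formula, 14.8% ± 2.81 in irradiated and 13.1% ± 3.10 in control libraries. Complex III took 9.13% ± 0.729, 9.72% ± 1.54 and 9.69% ± 0.924 in the same order of groups, and complex V 6.85% ± 0.845, 6.59% ± 0.774 and 6.65% ± 1.42. The groups overlap in all of these shares, and each difference between group means is below the SD within groups. For complex III in irradiated plus formula against control that difference was -0.56 percentage points, and -2.17 with Co1 left out of the counts. The highest complex I shares were those of irradiated 4, at 18.5%, irradiated plus formula 5, at 17.6%, and control 2, at 17.5%, 1 library of each group.

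In summed CPM the complexes kept the same order of size in each group. Complex IV summed to 163850 CPM at the median of irradiated plus formula, 114850 of irradiated and 151800 of control libraries. At the median, complex I summed to 32982 CPM in irradiated plus formula, to 23880 CPM in irradiated libraries and to 23305 CPM in controls, and complex V to 15636, 10457 and 13754 CPM. For single genes, the median level was highest in irradiated plus formula libraries for 13 of 15 and lowest in irradiated libraries for 12 of 15. These medians are descriptions, since the groups overlap for every member tested.

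**Figure D4:**
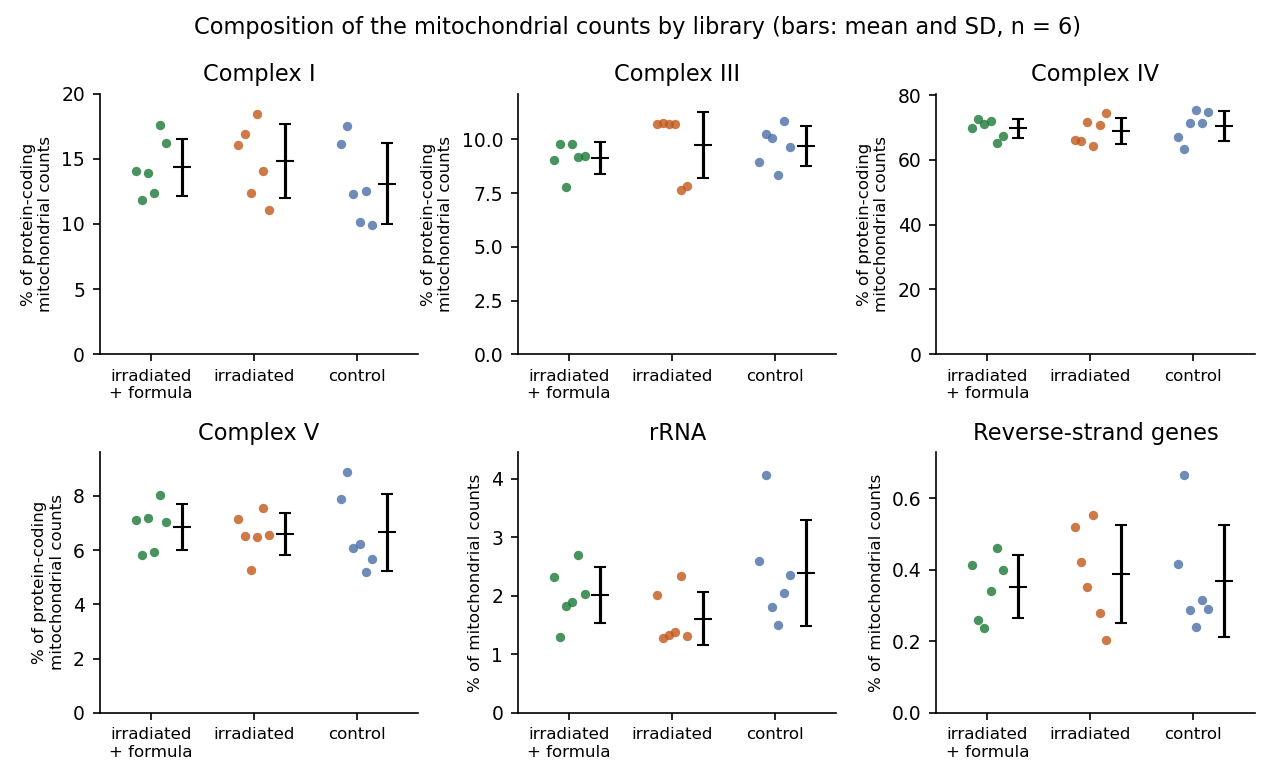
Share (%, vertical axes from 0) of complexes I, III, IV and V in the mitochondrial protein-coding counts and of rRNA and reverse-strand genes in all mitochondrial counts, by group (horizontal axes: irradiated plus formula, irradiated, control); points are libraries and bars are mean and SD, n = 6 each. The groups overlap in every panel; the widest separation is rRNA, with means of 1.61% in irradiated and 2.39% in control libraries.

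The rRNA share was the only one of the 21 differences in summed shares larger than the SD within groups. Rnr1 and Rnr2, the structural RNAs of the mitochondrial ribosome, together took 2.01% ± 0.472 of the mitochondrial counts in irradiated plus formula, 1.61% ± 0.455 in irradiated and 2.39% ± 0.905 in control libraries (SD, n = 6 each). Irradiated libraries ran from 1.27% to 2.34%, against 1.49% to 4.06% in control libraries. Of the irradiated libraries 4 of 6 are below every control, and the highest control value is that of control 2. The difference between irradiated and control was -0.79 percentage points, where the SD within groups was 0.716, -0.45 percentage points without control 2 and -1.51 with Co1 left out of the counts. The ratio of Rnr2 to Rnr1 counts, both cut from the same precursor, averaged 1.68 in irradiated plus formula, 1.70 in irradiated and 1.91 in control libraries. It did not separate the groups in two-sided exact permutation tests over all arrangements of the 12 libraries compared (lowest p = 0.370, adjusted p = 0.926 over 9 tests).

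Among single genes, Co3 had the largest difference in share relative to its spread, in irradiated plus formula against control. It took 13.8% ± 0.519 of the mitochondrial counts in irradiated plus formula and 12.2% ± 0.701 in control libraries (SD, n = 6 each). By library the share of Co3 was 13.96%, 12.9%, 14.5%, 13.8%, 13.9% and 13.9% in irradiated plus formula 1 to 6, against 12.6%, 13.2%, 11.7%, 12.5%, 11.2% and 12.3% in control 1 to 6. Of the irradiated plus formula libraries 5 of 6 were above every control, and irradiated plus formula 2 was below control 2 alone. Irradiated libraries ranged from 10.5% to 14.3%, across both groups. Scaled to the mitochondrial total, the log2 fold change of Co3 in irradiated plus formula against control was 0.17 (SE 0.19), with an edgeR adjusted p of 0.800.

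Rnr1 came next in irradiated plus formula against irradiated, at 0.747% of the mitochondrial counts in irradiated plus formula and 0.591% in irradiated libraries. It was above the highest irradiated library in 4 of 6 irradiated plus formula libraries, and its log2 fold change scaled to the mitochondrial total was 0.34 (SE 0.28), with an edgeR adjusted p of 0.388. Of 45 differences in the share of a single gene, 39 were smaller than the SD within groups and 0 were free of overlap. Co1 took 46.7% ± 4.03 of the mitochondrial protein-coding counts in irradiated plus formula, 47.9% ± 4.13 in irradiated and 49.6% ± 6.07 in control libraries (SD, n = 6 each). The 3 comparisons of that share gave exact permutation p-values of 0.344 to 0.626, each with an adjusted p of 0.926 over 9 tests.

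Reverse-strand genes contributed few of the counts in any group. Together the 9 genes took 0.352% ± 0.0883 of the mitochondrial counts in irradiated plus formula, 0.388% ± 0.136 in irradiated and 0.369% ± 0.156 in control libraries (SD, n = 6 each). Nd6 made up most of these counts. Nd6 had 464, 722 and 1024 CPM in irradiated plus formula libraries, 228, 502 and 1251 CPM in irradiated libraries and 459, 549 and 789 CPM in control libraries, so the irradiated range encloses both others. The share of Nd6 in the protein-coding counts did not separate the groups in exact permutation tests (p = 0.662 to 0.883, adjusted p = 0.926 over 9 tests). Reads were counted without strand, so antisense reads from the forward-strand transcript opposite Nd6 cannot be told apart from Nd6 mRNA. The same limit holds for the other reverse-strand genes. Poly(A) selection leaves untailed RNA underrepresented, so these shares do not measure the abundance of reverse-strand RNA in the tissue.

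tRNA genes were nearly absent from the counts of these poly(A)-selected libraries, in which untailed RNA is underrepresented. Of 22, 9 had 0 counts in all 18 libraries, which allows a level of up to 0.00407 CPM at 3 counts over all libraries, a limit for counting error only. A further 11 had between 1 and 23 counts in total, with at most 5 in a library. For 17 of the 22 genes fewer than 5 bases separate the gene from its neighbours on both sides, and reads reaching into a neighbour were not counted. Exceptions were tRNA-Ser(UCN), on the strand opposite the end of Co1, with 177 counts in total and at most 24 in a library, and tRNA-Pro (ENSRNOG00000029145, bases 15348 to 15415, reverse strand), with 55176 counts. Both are reverse-strand genes counted without strand, so reads of forward-strand RNA at these positions cannot be told apart from the tRNAs. tRNA-Pro is the last annotated gene before the non-coding control region, so reads reaching past its end on that side meet no other gene. Its CPM were 54.1, 76.5 and 102 in irradiated plus formula libraries, 17.7, 73.6 and 174 in irradiated libraries and 32.4, 74.1 and 107 in control libraries, with medians close together. Its edgeR log2 fold changes were 0.06 for irradiated plus formula against control, 0.15 for irradiated against control and -0.09 between irradiated plus formula and irradiated, each with an SE of 0.40. The few counts of tRNA-Ser(UCN) gave log2 fold changes of -0.10 (SE 0.85), -0.81 (SE 0.87) and 0.71 (SE 0.88) in these comparisons, the last 2 the largest in size among the 17 genes tested, with edgeR adjusted p-values of 0.990, 0.998 and 0.845.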

How the data were processed

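The authors deposited raw counts per gene, not normalized, which featureCounts 2.1.1 produced, per the file headers, from paired-end reads on mRatBN7.2 and Ensembl release 110. Pairs needed both ends aligned and not chimeric, and counting ignored strand, counted reads and not pairs, and skipped multi-mapping and overlapping reads, per the file headers. The submitters' processing notes also list FastQC, fastp, STAR and SAMtools, without versions. Per the labels' protocols RNA was poly(A)-selected and primed with random hexamers, so untailed RNA is underrepresented. Of the counts of at least 1 and below 40, 66.9% to 74.6% per library were even, so both reads of a pair were largely counted. 0 columns of sample values were left unused.

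Counts were fitted with edgeR 4.0.16 in R 4.3.3: TMM factors, filterByExpr (16593 genes kept), a quasi-likelihood model of group means over all 18 libraries, and Benjamini-Hochberg adjustment over all tested genes. SEs and 95% intervals were derived from the F statistic and are approximate. The procedure was tested on simulated counts in which only genes outside the mitochondrial chromosome were changed. Recovery of changes in the members was not tested. Shares were computed from raw counts. Sums over members were given without a test. The 9 fixed ratio and share tests were exact permutation tests. DESeq2 1.42.0, other scalings and filters, a replicate block and leaving out libraries were tried as alternatives. By the rule for named genes, each of the 15 mRNA and rRNA genes is given by its level in each group and its edgeR result, and tRNA genes by ranges unless tested. No annotation of mitochondrial genes was at hand, so names rest on coordinates and gene order, an exception to that rule, as are pairs and shares singled out after their values were seen.

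The members and lists were chosen with earlier results of these data known. The gene table used beside the counts matched 0 of 30562 IDs and holds 0 mitochondrial genes, so the lists of nuclear respiratory genes and of cell type markers could not be matched and are not analysed here, and the labelled tissue could not be checked against markers. All library pairs differed by more than sampling noise.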

Additional observations from a re-analysis of the deposited data

Results flagged for a closer look

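6 values stood farther from the other libraries of their group than Dixon's 95% limit for 6 libraries allows, out of 147 checks, where chance would give about 7.35. In irradiated 5, the library with the highest mitochondrial share, Rnr2 had 8457 CPM (others 329 to 2427), Nd4 had 17765 CPM (others 1824 to 7178) and Nd4l had 2346 CPM (others 221 to 1013). In control 6, Rnr1 had 2391 CPM (others 1095 to 1518), and the Nd4l to Nd4 ratio per base not shared with another gene was 0.494 (others 0.595 to 0.652). In irradiated plus formula 2, the Atp8 to Atp6 ratio per base not shared was 0.0679 (others 0.0259 to 0.0416). The cause of these values was not tested.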

How the results depend on the processing

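Across 28 settings of the edgeR or DESeq2 fit the number of mitochondrial genes called was 0 in all 3 comparisons. Of 2285 values recomputed under an alternative, 2281 were counted as unchanged. For tested values this means only that they kept their side of the adjusted p threshold, and their size was not compared. For untested summed shares it means a shift below the SD within groups. Tested values could move far and still count as unchanged: Rnr2 in irradiated against control went from -0.11 to -0.89 without irradiated 5. Leaving Co1 out of numerator and denominator moved the complex III share in irradiated plus formula against control to -2.17 percentage points, from -0.56, and the rRNA share in irradiated against control to -1.51, from -0.79. Leaving out Co1 shrinks the denominator, and the share of Co1 itself was 46.7% in irradiated plus formula, 47.9% in irradiated and 49.6% in control libraries. Uncalled values changed sign more readily. With the replicate number as a block 15 of 17 fitted values were positive in irradiated plus formula against control, 5 in irradiated against control and 17 in irradiated plus formula against irradiated, with medians of 0.29, -0.06 and 0.33. The adjusted p of the 9 fixed tests, then run as sign-flip tests, was at least 0.906. Sign flips over so few pairs leave little room for a low adjusted p. Of 18 pairs with the same number, 5 correlated above 0.1 (range -0.51 to 0.61), and 4 of 18 libraries lay closest to their own number. Without the same values for pairs with different numbers, this cannot settle whether the numbers pair libraries. Over all genes DESeq2 called 47 in irradiated plus formula against control, against 2 in edgeR, and the fit of only the 12 libraries 6, and DESeq2 called 8 in irradiated plus formula against irradiated, against 0 in edgeR; the cause was not tested. Dropping 1 library at a time moved the difference in mitochondrial share between irradiated and control libraries between -3.52 and 3.27 percentage points. Depth limits only the tRNA genes: without a filter 28 members could be tested, and tRNA-His, with 6 counts in total, had an unadjusted p of 0.0405 in irradiated against control (edgeR adjusted p = 1).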

Other observations

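Ratios between neighbouring or related mitochondrial genes remove the differences in mitochondrial total between libraries. For 7 pairs, chosen after the data were seen, counts per base not shared with another gene were compared in 21 two-sided exact permutation tests, and 0 passed an adjusted p of 0.05. Nd4l and Nd4, which overlap by 7 bases and are translated from 1 shared mRNA, had a ratio of 0.685 ± 0.0269 in irradiated plus formula, 0.689 ± 0.0901 in irradiated and 0.600 ± 0.0551 in control libraries (SD, n = 6 each). Reads touching both genes were counted for neither, so this ratio compares counts as assigned and not RNA levels. How far the dropped reads set it was not tested. By library the ratio was 0.649 at lowest and 0.711 at highest in irradiated plus formula, against 0.494 and 0.652 in control libraries, and 6 of 6 irradiated plus formula libraries were above the control median. For irradiated against control the adjusted p was 0.300. The difference between irradiated plus formula and control had an exact permutation p of 0.0043 and an adjusted p of 0.0909, which was 0.0455 without control 4 and 0.227 without control 6. With the replicate number as a block, a sign-flip test gave an adjusted p of 0.547. Flips over 6 pairs allow so few arrangements that a p adjusted over 21 tests could hardly fall below 0.05.

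Nd6 and Nd5 lie on opposite strands and overlap by 23 bases. Reads were counted without strand, so reads antisense to Nd6 count as Nd6 when these genes are compared. Their ratio was 0.808 ± 0.0883 in irradiated plus formula, 0.807 ± 0.106 in irradiated and 0.966 ± 0.0954 in control libraries (SD, n = 6 each). It was below the control median in 6 of 6 irradiated plus formula libraries (exact permutation p = 0.0152, adjusted p = 0.159) and in 5 of 6 irradiated libraries (exact permutation p = 0.0260, adjusted p = 0.182). Without irradiated 4, whose ratio of 0.988 was the highest of its group, the adjusted p of irradiated against control was 0.0455. It was 0.348 without irradiated 2, 0.235 without control 2, whose ratio of 1.12 was the highest of all, and 0.0833 without control 2 and irradiated 4. The sign-flip test with the replicate number as a block, limited as described above, gave 0.547. Over the alternatives tried for this family adjusted p-values ran from 0.0455 to 1. The 2 comparisons with control use the same control libraries. Atp8 to Atp6, the pair with the largest shared stretch, had a ratio of 0.0342 over all 18 libraries, from counts that leave out reads touching both genes.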
